A study of Homo sapiens with 15 samples.

Results

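The 10 genes described here encode enzymes that build or convert androgens: CYP17A1, HSD3B1, HSD3B2, HSD17B3, HSD17B6, AKR1C1, AKR1C2, AKR1C3, SRD5A1 and SRD5A3. They were chosen as a named list and matched by gene identifier among the 58381 genes counted in each library, and all 10 were found. Of these, 7 had enough counts to be tested. RNA-seq libraries were made from 5 sublines of VCaP, an established prostate cancer cell line with an amplified androgen receptor gene, with 3 libraries per subline and 15 in all. VCaP-T was grown for 7 months with 10 nM testosterone, and VCaP-CT is VCaP-T after a further 10 months at 0.1 nM testosterone. Cells of VCaP-CT kept under the receptor antagonist enzalutamide at 10 µM gave VCaP-CT-ER, and those kept under the older antagonist bicalutamide gave VCaP-CT-BR. The line that then received enzalutamide is VCaP-CT-BR-ER. VCaP-CT-ER against VCaP-CT is called the first enzalutamide step here, and VCaP-CT-BR-ER against its start line VCaP-CT-BR the second. All 5 were kept in RPMI 1640 medium with charcoal-stripped serum, which is poor in steroids. The treatment labels disagree with the growth protocol in 2 places: they list 10 nM testosterone also for the later phase, and the VCaP-CT-BR label names enzalutamide after bicalutamide. The protocol calls the enzalutamide line VCaP-CT-ET. The doses of bicalutamide and of the enzalutamide given after it are not given in the sources used here. Each subline was derived once as far as the sources say, so that treatment, time in culture and derivation cannot be told apart, and nothing says that the 3 libraries of a subline came from separate cultures, so p-values measure only the spread between these libraries.

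Androgens are made from cholesterol in the gonads and adrenal glands. CYP17A1 makes the precursor DHEA, the HSD3B enzymes turn DHEA into androstenedione, and a ketosteroid reductase turns androstenedione into testosterone, namely HSD17B3 in the testis and AKR1C3 in many other tissues. SRD5A enzymes reduce testosterone to dihydrotestosterone, the strongest ligand of the receptor. AKR1C1 and AKR1C2 reduce dihydrotestosterone to weaker steroids, and HSD17B6 can oxidise androstanediol back to dihydrotestosterone. Prostate tumours under castration are known for using such steps on adrenal precursors.

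The 3 AKR1C genes lie side by side on chromosome 10 of GRCh38, AKR1C1 at chr10:4963253-4983283 on the plus strand, AKR1C2 at chr10:4987400-5018031 on the minus strand and AKR1C3 at chr10:5035354-5107686 on the plus strand. Their sequences are shown because they decide how many fragments can be assigned to each gene. All 3 coding parts are 969 bases long in the GENCODE release 44 transcripts, and AKR1C1 and AKR1C2 differ at 19 of these bases (98.0% identity), with a longest identical run of 186 bases. AKR1C1 and AKR1C3 differ at 83 bases (91.4% identity). The stretch with the most differences between AKR1C1 and AKR1C2, coding bases 73 to 162 counted from the A of the start codon, held 10 of the 19. Capitals mark the bases at which the 3 genes are not all alike.
AKR1C1: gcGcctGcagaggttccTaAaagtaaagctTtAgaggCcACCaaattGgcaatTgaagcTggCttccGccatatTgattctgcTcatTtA
AKR1C2: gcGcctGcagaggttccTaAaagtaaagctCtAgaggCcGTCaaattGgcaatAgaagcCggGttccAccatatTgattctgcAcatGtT
AKR1C3: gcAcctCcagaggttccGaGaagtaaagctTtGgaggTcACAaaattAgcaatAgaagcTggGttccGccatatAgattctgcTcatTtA
Of all 50-base windows of the coding part, 54.3% for AKR1C1, 57.1% for AKR1C2 and 23% for AKR1C3 occurred unchanged in another counted gene. For 100-base windows the shares were 20.7%, 26.4% and 9.77%. Fragments that map equally well to several places were not counted, so the counts of AKR1C1 and AKR1C2 are uncertain. Their sum is also given, which can undo a wrong split of reads between these genes. It does not bring back fragments left out for mapping to both.

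The promoters of the same 3 genes, 250 bases before to 50 after the start in RefSeq on GRCh38.p14, are printed on the transcribed strand because all 3 genes were higher in VCaP-CT-ER than in VCaP-CT. Capitals mark ATTGG, the reverse complement of a CCAAT box, and in AKR1C3 also TTTATA, the reverse complement of TATAAA. AKR1C1 spans chr10:4963165-4963464 on the plus strand, AKR1C2 chr10:5003808-5004107 on the minus strand and AKR1C3 chr10:5048531-5048830 on the plus strand.
AKR1C1: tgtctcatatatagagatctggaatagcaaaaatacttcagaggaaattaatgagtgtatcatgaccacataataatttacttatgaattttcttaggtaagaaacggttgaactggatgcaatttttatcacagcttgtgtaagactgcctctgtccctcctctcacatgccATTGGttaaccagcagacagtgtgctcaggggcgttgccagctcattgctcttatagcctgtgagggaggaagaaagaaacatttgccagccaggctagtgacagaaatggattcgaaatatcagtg
AKR1C2: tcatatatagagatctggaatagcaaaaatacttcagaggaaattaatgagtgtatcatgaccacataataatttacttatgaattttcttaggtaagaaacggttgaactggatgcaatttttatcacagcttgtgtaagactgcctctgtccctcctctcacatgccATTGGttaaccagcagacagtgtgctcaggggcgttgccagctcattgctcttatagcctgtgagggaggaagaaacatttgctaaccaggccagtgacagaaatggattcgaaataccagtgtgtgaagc
AKR1C3: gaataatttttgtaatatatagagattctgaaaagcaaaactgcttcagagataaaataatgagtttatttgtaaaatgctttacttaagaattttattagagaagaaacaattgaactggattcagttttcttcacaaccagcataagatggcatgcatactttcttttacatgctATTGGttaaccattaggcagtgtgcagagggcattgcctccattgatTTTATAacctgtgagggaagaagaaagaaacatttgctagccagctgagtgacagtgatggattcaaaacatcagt
AKR1C1 and AKR1C2 were identical at 288 of 292 aligned promoter bases (98.6%), and AKR1C1 and AKR1C3 at 227 of 291 (78%). The CCAAT box began at base -77, -81 and -73 relative to the start, and a second RefSeq start of AKR1C3 had one at -86. CCAAT was present on either strand in 34.6% of 35093 promoters of this length. None of the 3 printed promoters held the androgen response half-site AGAACA (14.8% of promoters) or the antioxidant response element core TGACNNNGC (13.4%), on either strand. Among the other members, SRD5A1 had 2 GC boxes (GGGCGG, 44.9% of promoters), SRD5A3 had 1 GC box and 1 match to the antioxidant core, and HSD3B2 had 1 androgen half-site and 2 CCAAT boxes. The letters TATAAA were present in 11.5% of promoters and, besides AKR1C3, in that of HSD17B3. HSD17B6 had no entry. Each match is a description of letters, with no reading about binding.

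Library totals lay between 33665716 and 46935279 counted fragments. Correlations of log2 counts scaled to library size (CPM) were at least 0.991 within a subline and at most 0.980 between sublines. All 11 prostate markers had a mean over 1 CPM in every subline. Among markers of other cell types, CD3E and COL1A2 were at 0 in all libraries and PTPRC, a leukocyte marker, at 0 to 2 counts. The summed fibroblast list of 7 genes was 185 to 250.5 CPM in the enzalutamide sublines, where LUM alone was at 182.9 to 248.2 CPM, and 7.65 to 25.5 CPM elsewhere. Endothelial markers summed to 13.2 to 16.3 CPM in VCaP-T and at most 9.31 CPM elsewhere, with CDH5 at 0 or 1 count, leukocyte markers to at most 0.994 CPM and hepatocyte markers to 1.10 to 33.1 CPM, led by ALB. The part of any of these genes in the results was not tested. The 4 markers of adrenal or gonadal steroid-making cells summed to at most 0.245 CPM. Bulk RNA cannot tell fewer cells that express a gene from less RNA per cell.

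Compared per exon length, as TPM, HSD17B6 and SRD5A1 stood highest in VCaP-T, at 12.3 ± 0.89 and 12.7 ± 0.16 TPM (mean ± SD, n = 3). HSD17B6 led in the other 4 sublines, from 39.3 ± 2.45 TPM in VCaP-CT to 10.2 ± 1.04 TPM in VCaP-CT-BR-ER, where SRD5A1 stood at 9.92 ± 0.55 TPM. The differences between these genes in the first and last of these sublines were within the SD of HSD17B6. AKR1C3 was the second of the list in VCaP-CT-ER alone, at 9.89 ± 0.87 TPM, and ranked below SRD5A3 in each of the others. AKR1C1, AKR1C2 and HSD3B1 stayed under 1.5 TPM in every subline. Exon length covers all annotated exons: 8765 bases for AKR1C1, 4532 for AKR1C3, 7715 for SRD5A1 and 2272 for HSD17B6. The order between genes depends on these lengths. In CPM, AKR1C3 stood highest in VCaP-CT-ER (mean 17.26), above SRD5A1 (12.95) and HSD17B6 (12.26). Fragments lost for mapping to several places can also lower the AKR1C genes. The plot of levels per exon length sets the TPM values side by side.

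**Figure D1:**
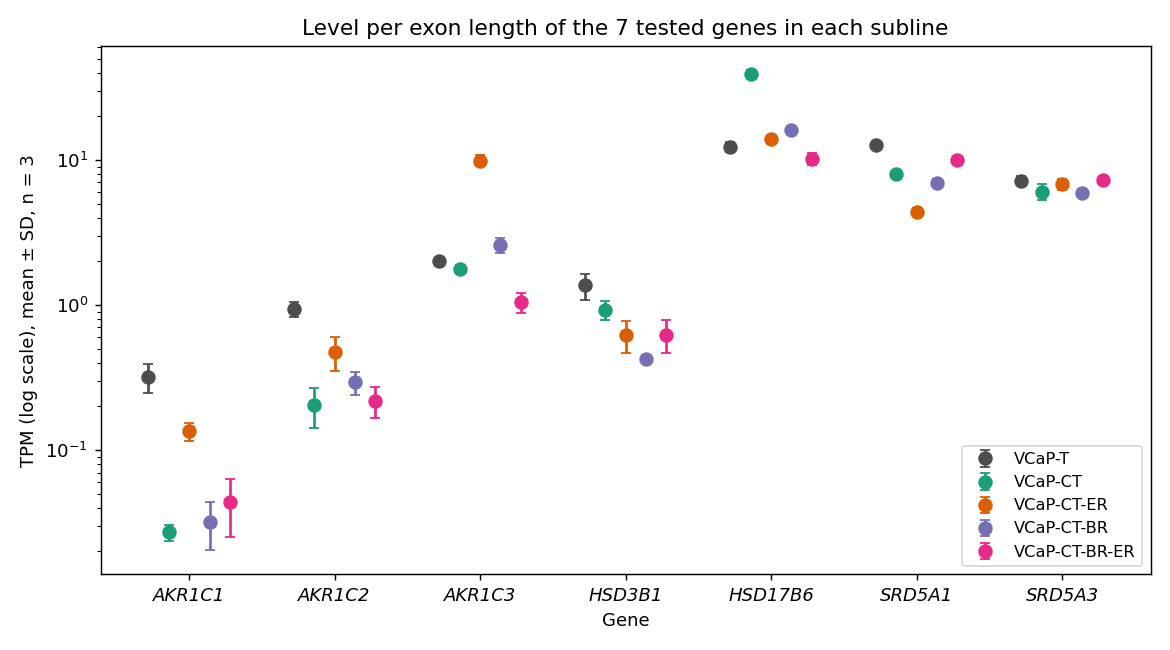
TPM on a log axis for the 7 tested genes, with 1 point per subline (mean of 3 libraries) and bars for the SD. HSD17B6 in VCaP-CT is the highest point at 39.3 TPM and AKR1C1 in VCaP-CT the lowest at 0.0271 TPM.

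CYP17A1, HSD3B2 and HSD17B3 were at or near the limit of detection. CYP17A1 (chr10:102830531-102837533, minus strand) had 10, 8 and 19 counts in VCaP-T, 5, 7 and 3 in VCaP-CT and 3, 5 and 3 in VCaP-CT-ER. The VCaP-CT-BR libraries had 4, 1 and 2 counts and the VCaP-CT-BR-ER libraries 0, 2 and 0. In CPM every VCaP-T library was above every library of the other sublines, but the gene did not pass the filter on low counts and was not tested. Summed over libraries and scaled by library size, VCaP-T was 2.22 times VCaP-CT (95% exact interval 1.19 to 4.35, counting error only) and 18.6 times VCaP-CT-BR-ER (4.80 to 159.3). HSD3B2, the adrenal and gonadal form of its enzyme (chr1:119414931-119423035, plus strand), had 0 to 2 counts in each library and was not tested.

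HSD17B3, the testicular enzyme (chr9:96235306-96302152, minus strand), had 0 counts in all 15 libraries, which allows up to 3 counts in each, or 0.0639 to 0.0891 CPM. That limit does not hold for its coding part. All 881 of its 50-base coding windows occur also in ENSG00000285269, a gene on the same strand that shares 53% of the exon bases of HSD17B3. Fragments that overlapped both genes were assigned to neither, and ENSG00000285269 itself had 2 to 55 counts.

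HSD3B1, the form found outside the adrenal gland and gonads, was low throughout. It lies at chr1:119507198-119515054 on the plus strand. Its counts were 44, 39 and 64 in VCaP-T and 34, 26 and 35 in VCaP-CT. They were 33, 20 and 26 in VCaP-CT-ER, as against 17, 15 and 16 in VCaP-CT-BR and 22, 29 and 19 in VCaP-CT-BR-ER. In CPM the VCaP-T libraries were the highest and those of VCaP-CT-BR among the lowest. The gene fell by 1.15 on the log2 scale from VCaP-CT to VCaP-CT-BR (SE 0.27, edgeR adjusted p = 0.00122). From VCaP-CT to VCaP-CT-ER it fell by 0.65 (SE 0.25, edgeR adjusted p = 0.0274), a call that was lost with DESeq2 (adjusted p = 0.101). That call was also lost without replicate 1 or 3 of VCaP-CT (edgeR adjusted p = 0.0989 and 0.0856) and without replicate 2 of VCaP-CT-ER (0.150). The difference between VCaP-CT and VCaP-T did not pass (log2 -0.47, SE 0.22, edgeR adjusted p = 0.0715), although the libraries did not overlap.

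AKR1C3, the reductase that makes testosterone outside the testis, had the largest estimated rise of the members at the first enzalutamide step. The summed counts of AKR1C1 gave a ratio of 4.73 there (95% exact interval 2.41 to 10.3, counting error only). The order of AKR1C3 and AKR1C1 was not tested. Its libraries had 127, 130 and 138 counts in VCaP-T, 110, 105 and 124 in VCaP-CT, and 813, 762 and 766 in VCaP-CT-ER. They had 162, 175 and 210 counts in VCaP-CT-BR and 64, 81 and 73 in VCaP-CT-BR-ER. In CPM, each VCaP-CT-ER library (15.9 to 19.0) was above all others, and each VCaP-CT-BR-ER library (1.56 to 2.20) was below all others. From VCaP-CT to VCaP-CT-ER it rose 5.29-fold (log2 2.40, SE 0.11, edgeR adjusted p = 5.64e-14), and from VCaP-CT to VCaP-CT-BR it rose 1.43-fold (log2 0.52, SE 0.12, adjusted p = 0.00128). At the second enzalutamide step it fell by 1.31 on the log2 scale (SE 0.13, edgeR adjusted p = 6.24e-08). VCaP-CT and VCaP-T overlapped and were not called different (log2 -0.07, SE 0.13, edgeR adjusted p = 0.647).

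AKR1C2, which reduces dihydrotestosterone to a weak metabolite, was highest in VCaP-T. Its counts were 74, 92 and 99 in VCaP-T, 13, 17 and 26 in VCaP-CT, and 43, 73 and 46 in VCaP-CT-ER. They were 23, 33 and 32 in VCaP-CT-BR and 29, 17 and 20 in VCaP-CT-BR-ER. The VCaP-T libraries lay above all others, those of VCaP-CT-ER came next, and the remaining 3 sublines overlapped. The gene fell by 2.09 on the log2 scale from VCaP-T to VCaP-CT (SE 0.24, edgeR adjusted p = 1.61e-07) and rose by 1.14 from VCaP-CT to VCaP-CT-ER (SE 0.26, adjusted p = 0.000751). Neither the step into VCaP-CT-BR (log2 0.48, SE 0.29) nor that on to VCaP-CT-BR-ER (log2 -0.40, SE 0.28) passed.

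AKR1C1 had the same order at the top at lower counts. It had 49, 31 and 42 counts in VCaP-T, 3, 3 and 4 in VCaP-CT, and 25, 19 and 18 in VCaP-CT-ER. The VCaP-CT-BR libraries had 3, 6 and 4 counts and the VCaP-CT-BR-ER libraries 7, 3 and 8. It passed the filter on low counts through VCaP-T and VCaP-CT-ER. The filter thus favoured its calls against either of these sublines, here and below, and these calls are not read as support. Relative to VCaP-T it was lower by 3.42 on the log2 scale in VCaP-CT (SE 0.37, edgeR adjusted p = 5.11e-08). The summed counts were 122 and 10, a ratio of 10.98 with a counting interval of 5.77 to 23.5. It was higher by 2.20 in VCaP-CT-ER than in VCaP-CT (SE 0.41, adjusted p = 9.90e-05). With the reads of AKR1C1 and AKR1C2 added together, the sum fell by 2.40 from VCaP-T to VCaP-CT (SE 0.20, edgeR adjusted p = 1.24e-09) and rose by 1.37 from VCaP-CT to VCaP-CT-ER (SE 0.22, adjusted p = 1.56e-05).

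**Figure D2:**
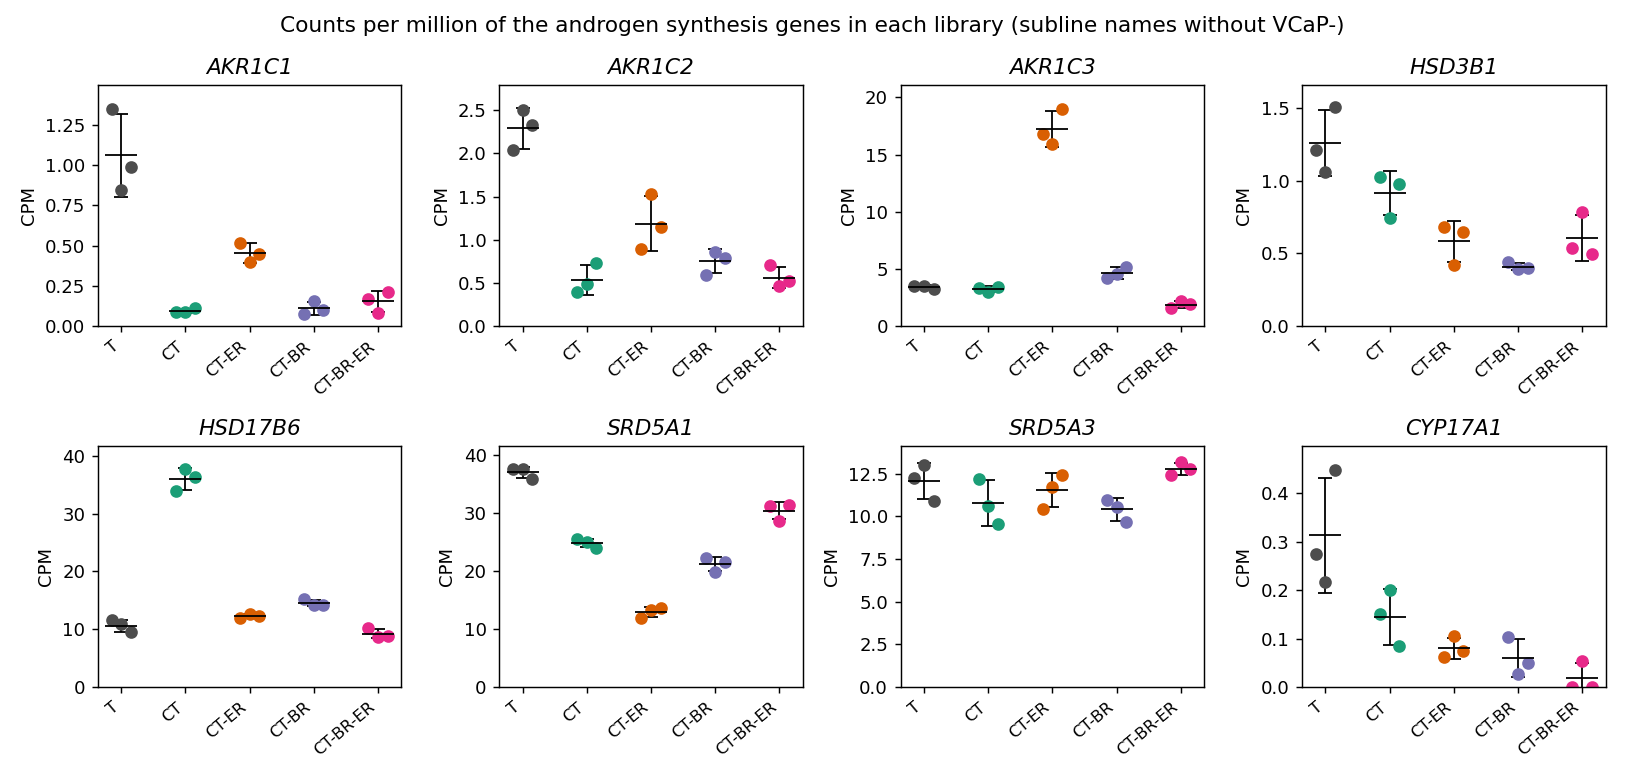
CPM of 8 members in each of the 15 libraries, 1 panel per gene with its own axis from 0. Points are libraries, the horizontal line is the subline mean and the bars are the SD. AKR1C3 stands out in VCaP-CT-ER at 15.9 to 19.0 CPM, and HSD17B6 in VCaP-CT at 34.0 to 37.7 CPM.

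HSD17B6, the oxidase that returns androstanediol to dihydrotestosterone, was highest in VCaP-CT by a wide margin. It lies at chr12:56752161-56787790 on the plus strand, and 132 of its exon bases overlap PRIM1 on the other strand, where unstranded counting assigned no fragment. It had 418, 399 and 402 counts in VCaP-T and 1125, 1325 and 1300 in VCaP-CT. The counts were 578, 602 and 492 in VCaP-CT-ER, beside 584, 541 and 572 for VCaP-CT-BR and 418, 320 and 337 in VCaP-CT-BR-ER. The VCaP-CT libraries did not overlap any other subline. From VCaP-T to VCaP-CT it rose 3.40-fold (log2 1.77, SE 0.08, edgeR adjusted p = 2.72e-14). It then fell by 1.56 into VCaP-CT-ER (SE 0.08, edgeR adjusted p = 1.87e-13), by 1.31 into VCaP-CT-BR (SE 0.08, adjusted p = 1.13e-11), and by a further 0.65 at the second enzalutamide step (SE 0.08, adjusted p = 1.41e-06). All 4 pairs of neighbours in its order of levels differed by the edgeR test, but the last pair, VCaP-T above VCaP-CT-BR-ER, had overlapping libraries (log2 0.20, adjusted p = 0.0413).

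SRD5A1, the reductase that makes dihydrotestosterone, had the most counts of the list in VCaP-T. It lies at chr5:6633343-6674386 on the plus strand. Its counts were 1364, 1382 and 1527 in VCaP-T, 844, 881 and 859 in VCaP-CT, and 576, 633 and 552 in VCaP-CT-ER. They were 860, 757 and 869 in VCaP-CT-BR and 1282, 1058 and 1201 in VCaP-CT-BR-ER. In CPM no subline overlapped its neighbours, in the order VCaP-T, VCaP-CT-BR-ER, VCaP-CT, VCaP-CT-BR and VCaP-CT-ER, and each of these 4 neighbouring pairs differed. It fell by 0.58 from VCaP-T to VCaP-CT (SE 0.06, edgeR adjusted p = 9.74e-08), by 0.94 from VCaP-CT to VCaP-CT-ER (SE 0.07, adjusted p = 1.25e-10), and by 0.23 from VCaP-CT to VCaP-CT-BR (SE 0.07, adjusted p = 0.00625). It rose by 0.52 at the second enzalutamide step (SE 0.07, edgeR adjusted p = 1.34e-06).

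SRD5A3, which shares the family name but is best known as the polyprenol reductase of dolichol synthesis, varied least. It lies at chr4:55346109-55373096 on the plus strand, and 198 of its exon bases overlap SRD5A3-AS1, which had 5 to 19 counts. Its counts ranged from 342 to 562 over the 15 libraries, and its subline means lay between 10.4 and 12.8 CPM. Of the 4 steps, only the second enzalutamide step was called, a rise of 0.30 on the log2 scale (SE 0.09, edgeR adjusted p = 0.0137), which was lost without replicate 3 of VCaP-CT-BR (adjusted p = 0.0693). No pair of neighbours in its order of levels differed. Over the 7 tested genes, 15 of 28 such neighbouring pairs were called. The order was set from the same libraries, and no share over all genes was computed for such pairs, so this count is not read as a result. For fixed pairs, 6 of 7 tested members were called in VCaP-CT-ER against VCaP-T (69% of all genes). Against VCaP-T, 7 of 7 were called in VCaP-CT-BR (71.2%) and 6 of 7 in VCaP-CT-BR-ER (70.2%). Between VCaP-CT-ER and VCaP-CT-BR, 5 of 7 were called (55.9%).

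At the step of androgen deprivation, VCaP-CT against VCaP-T, HSD17B6 rose, while AKR1C1, AKR1C2 and SRD5A1 fell. The filter on low counts favoured the AKR1C1 call. AKR1C3, HSD3B1 and SRD5A3 were not called. Of the 7 tested members, 4 were called by edgeR at an adjusted p under 0.05, beside 65.3% of all 19621 genes tested (33.1% higher and 32.2% lower). That share of members was near the share of all genes. Their median log2 fold change was -0.47, and that of all genes was 0.03.

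At the first enzalutamide step the 3 AKR1C genes were higher, by 1.14 to 2.40 on the log2 scale, and HSD3B1, HSD17B6 and SRD5A1 fell. The call of AKR1C1 was favoured by the filter on low counts. With SRD5A3 not called, 6 of 7 tested members were called, beside 60.9% of all genes (29.6% higher and 31.2% lower). Of the 7 fibroblast markers, 4 were tested at this step: LUM (from 4.87 to 7.16 CPM in VCaP-CT to 182.9 to 214.9 CPM in VCaP-CT-ER) and DCN rose, COL1A1 (mean 1.01 to 0.431 CPM) and PDGFRB (3.36 to 1.38 CPM) fell, and COL1A2 was at 0. Their part in the changes of the members was not tested. At the bicalutamide step, VCaP-CT-BR against VCaP-CT, AKR1C3 rose, and HSD3B1, HSD17B6 and SRD5A1 fell. That made 4 of 7, beside 53.2% of all genes (26.1% higher and 27% lower). At the second enzalutamide step SRD5A1 and SRD5A3 rose and AKR1C3 and HSD17B6 fell, 4 of 7 beside 42.9% of all genes (21.2% higher and 21.7% lower). At the bicalutamide and second enzalutamide steps these shares were also near those of all genes. The larger share at the first enzalutamide step rests on 7 genes and was not tested. It includes the HSD3B1 call that DESeq2 lost and the AKR1C1 call that the filter favoured. The first 2 antagonist steps share the VCaP-CT libraries. The plot of log2 fold changes by step shows the values.

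**Figure D3:**
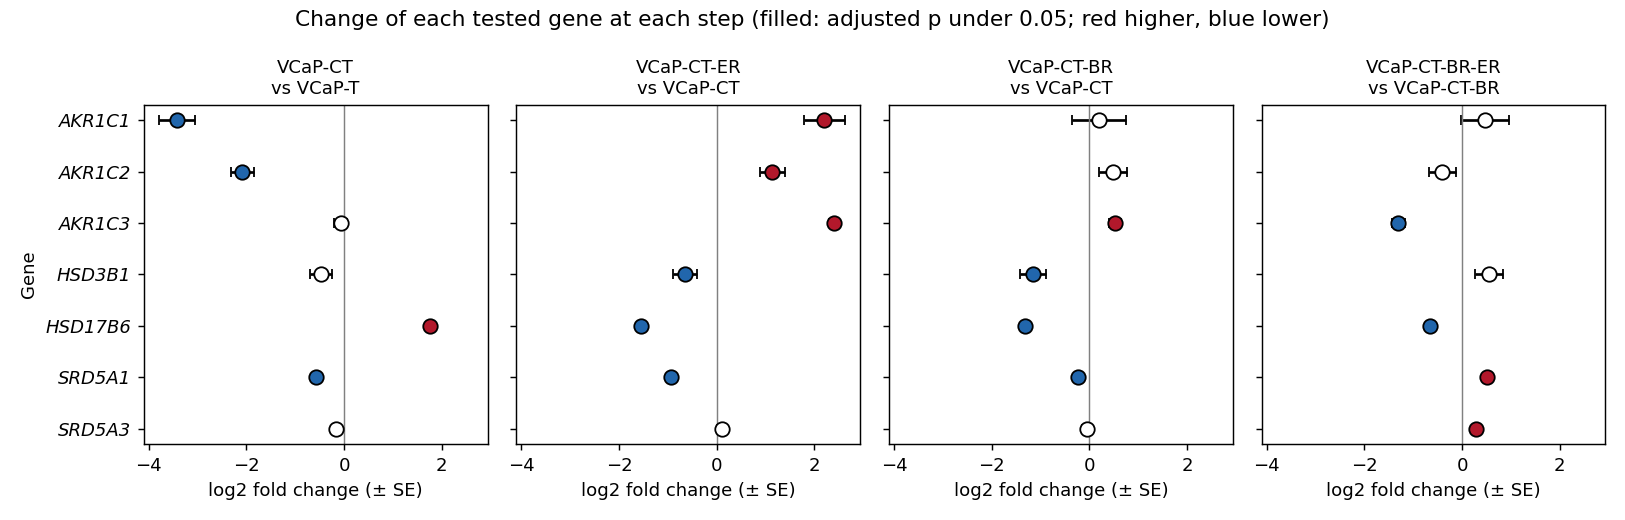
Log2 fold change of the 7 tested genes at the 4 steps, with bars for the SE and fill for an adjusted p under 0.05. At the enzalutamide step from VCaP-CT, the 3 AKR1C genes lie to the right of 0, at 2.20, 1.14 and 2.40, and HSD17B6 lies to the left, at -1.56.

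The enzalutamide step was compared between its 2 backgrounds in the same model, as the change at the second step minus the change at the first. It differed for 6 of the 7 tested members, beside 49.7% of all genes (25.2% higher and 24.5% lower). For AKR1C3 the difference was -3.71 on the log2 scale (SE 0.17, edgeR adjusted p = 2.56e-13), a rise in the first background and a fall in the second. For AKR1C2 it was -1.54 (SE 0.38, adjusted p = 0.00214) and for AKR1C1 -1.74 (SE 0.68, adjusted p = 0.0388). For SRD5A1 it was 1.46 (SE 0.09, edgeR adjusted p = 5.68e-11), a fall in the first and a rise in the second. For HSD17B6 it was 0.91 (SE 0.11, adjusted p = 8.50e-07), a smaller fall, and for HSD3B1 1.21 (SE 0.38, adjusted p = 0.0116). SRD5A3 was not called (0.20, SE 0.13, edgeR adjusted p = 0.225). The AKR1C1 call, which the filter on low counts favoured through VCaP-CT-ER, was lost with DESeq2 (adjusted p = 0.0972). It was also lost when replicate 1 or 2 of VCaP-CT, 1 or 3 of VCaP-CT-ER, 2 or 3 of VCaP-CT-BR, or 1 or 2 of VCaP-CT-BR-ER was left out (edgeR adjusted p = 0.0510 to 0.147).

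The direct comparison of the 2 enzalutamide endpoints gave the sizes apart from their start lines. AKR1C3 was 9.16-fold lower in VCaP-CT-BR-ER than in VCaP-CT-ER (SE 0.12 on the log2 scale, edgeR adjusted p = 3.39e-15), AKR1C1 2.90-fold lower and AKR1C2 2.09-fold lower. SRD5A1 was 2.35-fold higher (SE 0.07 on the log2 scale, edgeR adjusted p = 2.74e-12). HSD17B6 was 1.33-fold lower (adjusted p = 0.000313 by edgeR). That made 5 of 7 members called, beside 45.9% of all genes. HSD3B1 and SRD5A3 were not called between these endpoints (edgeR adjusted p = 0.879 and 0.200).

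Genes next to the members on the chromosome were read in windows of 2 megabases, a size chosen after values were seen. For the AKR1C genes, windows of 5 megabases are given too. Around SRD5A1, 11 of 12 other tested genes were lower and 0 higher in VCaP-CT-ER than in VCaP-CT, with a median log2 fold change of -0.63 beside -0.94 for SRD5A1. At the second enzalutamide step, 8 were higher and 2 lower, with a median of 0.36 beside 0.52. From VCaP-CT to VCaP-CT-BR they went against SRD5A1, with 10 higher, 0 lower and a median of 0.31 beside -0.23, and also from VCaP-T to VCaP-CT, with 5 higher, 3 lower and a median of 0.15 beside -0.58. Around AKR1C1, 13 of 21 were lower and 2 higher in VCaP-CT than in VCaP-T, with a median of -0.85 beside -3.42, but within 5 megabases 21 of 40 were lower and 5 higher, with a median of -0.24. At the enzalutamide step from VCaP-CT, 6 of the 20 genes around AKR1C3 were higher and 7 lower, with a median of -0.0048 beside 2.40, and within 5 megabases 9 of 40 were higher and 18 lower, with a median of -0.19. Around HSD17B6, 63 of 109 were lower and 17 higher in VCaP-CT than in VCaP-T, with a median of -0.30 beside its rise of 1.77. Copy number was not measured here, and its part in these values was not tested.

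**Figure D4:**
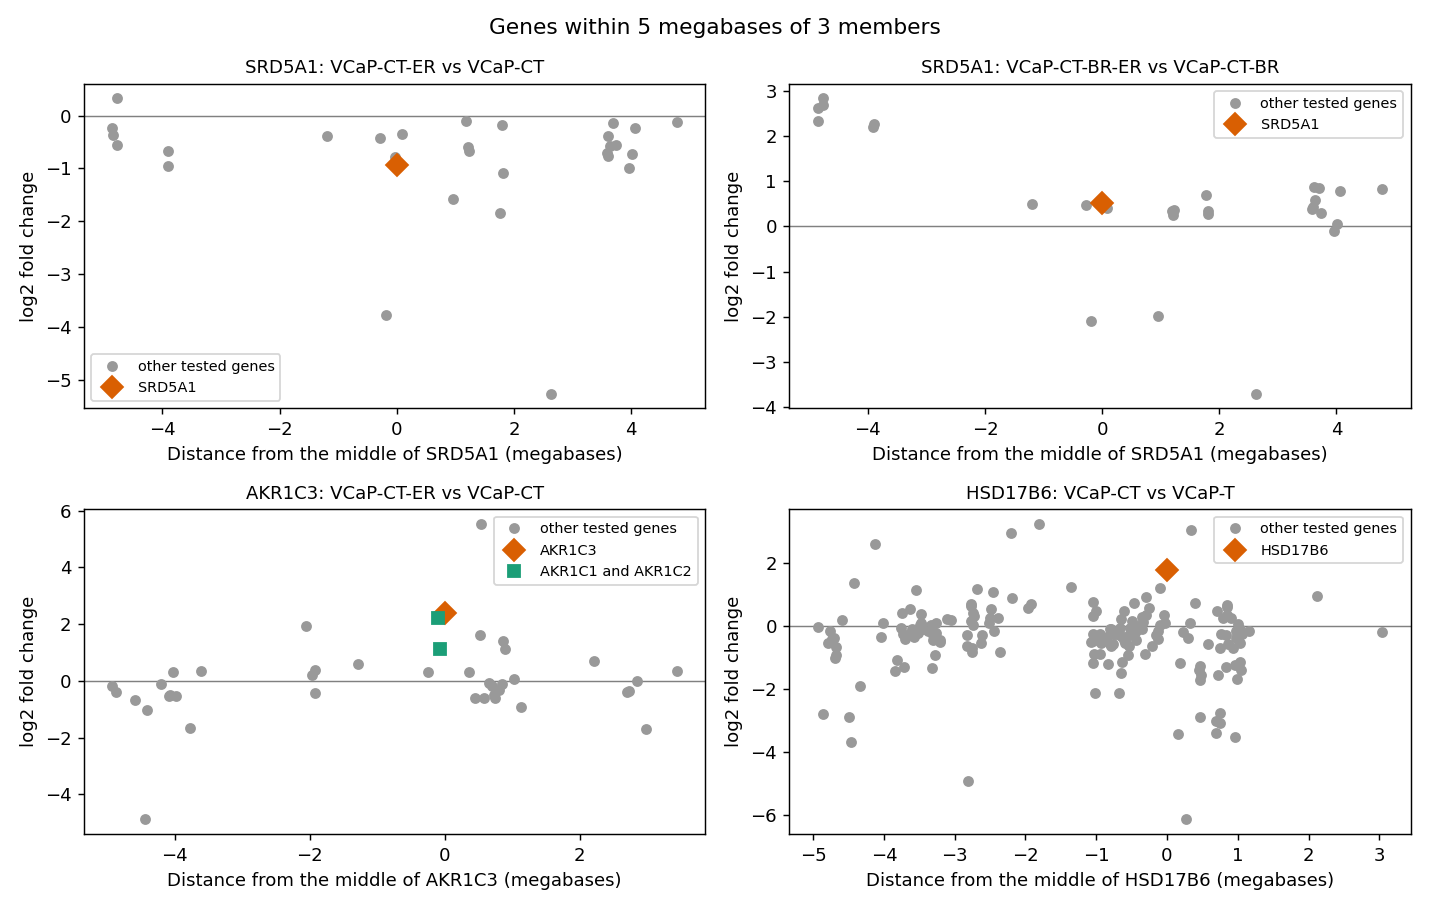
Log2 fold change of tested genes against their distance in megabases from SRD5A1, AKR1C3 or HSD17B6, within 5 megabases, at the steps named above each panel. Diamonds are the members, squares AKR1C1 and AKR1C2, and grey points other genes. SRD5A1 lies among its neighbours at both enzalutamide steps, and HSD17B6 at 1.77 lies above most of its neighbours in VCaP-CT against VCaP-T.

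The genes whose log2 CPM ran closest to a member over the 15 libraries, after centring, were taken for the 5 members with a mean of at least 1 CPM. SRD5A1 was followed most closely by MYO1D (root mean square difference 0.10 on the log2 scale) and OSMR (0.14). AKR1C2 was nearest to ZFAND2A (0.25) and VSTM5 (0.26), AKR1C3 to RCAN2 (0.36) and ENSG00000253706 (0.39), and HSD17B6 to GAPDHP71 (0.23) and FHIT (0.26). SRD5A3, which varied little, was nearest to COPZ1 and HDGF (0.09 each).

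Of 57 other genes of androgen metabolism, 36 were tested. In VCaP-CT against VCaP-T, 10 were higher, 18 lower and 8 not called, beside 65.3% of all genes called. The first enzalutamide step gave 11 higher, 8 lower and 17 not called (60.9% of all genes called), the bicalutamide step 7, 15 and 14 (53.2%), and the second enzalutamide step 10, 7 and 19 (42.9%). STAR and CYP11A1, which deliver cholesterol and cut its side chain, reached at most 9 and 1 counts, and SRD5A2, the classical prostate reductase, at most 4. The partners of CYP17A1 were plentiful, with POR at 39.7 to 54.2 CPM and CYB5A at 71.6 to 119 CPM. CYP21A2, CYP11B1, CYP11B2, CYP19A1 and HSD17B8 had 0 counts in every library, and CYP21A2 has a near-identical pseudogene copy. As fragments that map to several places were left out, a 0 need not mean that no RNA was present. For HSD17B8 and the others this was not tested.

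By role, the steps are given in the order VCaP-CT against VCaP-T, VCaP-CT-ER and VCaP-CT-BR each against VCaP-CT, and VCaP-CT-BR-ER against VCaP-CT-BR. At these steps 33.1%, 29.6%, 26.1% and 21.2% of all genes tested were higher and 32.2%, 31.2%, 27% and 21.7% lower. Of 11 tested hydroxysteroid dehydrogenases outside the members, 4, 2, 3 and 4 were higher and 4, 1, 6 and 1 lower. Of 4 tested genes of cholesterol delivery and side-chain cleavage, 2, 0, 1 and 1 were higher and 1, 1, 2 and 1 lower. Of 4 tested sulfation genes, 2, 0, 1 and 2 were higher and 2, 2, 1 and 2 lower. Of 3 tested hydroxylases, 1, 2, 0 and 1 were higher and 2, 0, 1 and 0 lower, and of 3 tested regulators of steroid synthesis, 0, 2, 2 and 1 were higher and 2, 1, 0 and 1 lower. Of 2 tested genes of the corticoid branch, 0, 1, 0 and 1 were higher and 1, 1, 2 and 1 lower. Of the 2 partners of CYP17A1, CYB5A rose at the first 2 steps and POR was not called at any. SLCO2B1 was the 1 tested steroid carrier of 4. It passed the filter on low counts through VCaP-T (10, 16 and 13 counts), so its lower call at the first step was favoured by the filter and cannot be read as a fall. At the other steps it was not called. Of the 3 other reductases and aromatase, 0 were tested.

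Of these genes, those with the larger called changes were as follows. DHRS9, a steroid and retinol dehydrogenase, had 286, 278 and 290 counts in VCaP-T and 2, 2 and 1 in VCaP-CT, a ratio of 153.7 (exact interval 65.6 to 474.7), and it had 0 in each VCaP-CT-BR library. It passed the filter on low counts through VCaP-T alone, which favoured its lower call in VCaP-CT. Its lower call at the bicalutamide step compares counts under the floor of 3 with 0 and cannot be read as a fall. UGT2B7, which conjugates steroids for excretion, fell by 2.31 on the log2 scale from VCaP-T to VCaP-CT (edgeR adjusted p = 1.36e-10), and UGT2B15, the androgen-conjugating form, fell by 1.31 (adjusted p = 0.00222). UGT2B7 fell by 1.84 also at the bicalutamide step (edgeR adjusted p = 8.40e-06). UGT2B15 then rose by 3.44 from VCaP-CT to VCaP-CT-ER (edgeR adjusted p = 5.99e-10), with 158, 163 and 189 counts there and 10, 4 and 22 in VCaP-CT. All 6 UGT2B genes were tested, and as close copies of each other they can lose or split reads. From VCaP-T to VCaP-CT 5 of them were lower and 0 higher, beside 32.2% and 33.1% of all genes. UGT2B10 (21, 21 and 23 counts in VCaP-T) and UGT2B11 (64, 61 and 94) passed the filter on low counts through VCaP-T, which favoured their lower calls there. The first enzalutamide step gave 3 higher and 2 lower (29.6% and 31.2% of all genes). The bicalutamide step gave 0 and 3 (26.1% and 27%), and the second enzalutamide step 0 and 1 (21.2% and 21.7%). UGT2B28 (17, 8 and 13 counts in VCaP-CT) passed the filter mainly through VCaP-CT, which favoured lower calls at the steps out of that subline. Its call at the bicalutamide step (log2 -2.06) is among those 3 and cannot be read as a fall. PAPSS2, which makes the sulfate donor for DHEA sulfation, fell by 2.83 into VCaP-CT-ER (edgeR adjusted p = 3.27e-17) and by 2.09 into VCaP-CT-BR (adjusted p = 1.60e-14), and rose by 1.18 at the second enzalutamide step (adjusted p = 1.45e-10). HSD17B14 fell by 2.46 into VCaP-CT-BR (edgeR adjusted p = 1.86e-11), and HSD11B2, which inactivates cortisol, fell by 1.41 into VCaP-CT-ER (adjusted p = 3.60e-11) and by 1.05 into VCaP-CT-BR (adjusted p = 7.64e-09). NR5A2, a nuclear receptor that drives steroidogenic genes in other tissues, rose by 4.98 from VCaP-CT to VCaP-CT-ER (edgeR adjusted p = 5.71e-17), from 18, 22 and 21 counts to 862, 837 and 823, where CYP17A1 and HSD3B2 had 0 to 5 counts. NR5A2 rose also at the bicalutamide step, by 1.69 (edgeR adjusted p = 5.26e-07), and at the second enzalutamide step, by 1.49 (adjusted p = 1.11e-08). CYP1B1, a steroid hydroxylase, fell by 2.96 from VCaP-T to VCaP-CT (edgeR adjusted p = 1.17e-14), and RDH16, which oxidises steroids and retinol, fell by 1.10 into VCaP-CT-BR (adjusted p = 0.000588).

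AKR1C genes are known targets of the antioxidant regulator NRF2, so 15 genes of that response were set beside them, 14 of them tested. In VCaP-CT-ER against VCaP-CT, 4 were higher and 6 lower, beside 29.6% and 31.2% of all genes, with a median log2 fold change of -0.10. ME1, with 16, 16 and 21 counts in VCaP-CT, passed the filter on low counts through that subline, which favoured calls of ME1 in comparisons with VCaP-CT. NQO1, a classical target, had 93, 80 and 87 counts in VCaP-CT and 4, 3 and 6 in VCaP-CT-ER (ratio 26.2, exact interval 15.1 to 49.9). SLC7A11, the cystine transporter, rose by 1.43 (edgeR adjusted p = 8.85e-12) and OSGIN1 by 1.22 (adjusted p = 7.16e-07). In VCaP-CT against VCaP-T, where AKR1C1 and AKR1C2 fell, 5 were higher and 5 lower, beside 33.1% and 32.2% of all genes. There NQO1, SLC7A11, HMOX1 and NFE2L2, which encodes NRF2, fell by 2.82, 2.78, 2.13 and 1.30 on the log2 scale, each called by edgeR. The counts were 6 higher and 6 lower in VCaP-CT-BR against VCaP-CT (26.1% and 27% of all genes), where GCLM rose by 1.25 (edgeR adjusted p = 8.79e-12). They were 2 higher and 4 lower in VCaP-CT-BR-ER against VCaP-CT-BR (21.2% and 21.7%). The part of NRF2 in the changes of the members was not tested.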

How the data were processed

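The authors aligned reads to GRCh38 with STAR 2.5.4b and deposited raw fragment counts per gene from featureCounts 1.6.2 on GENCODE release 28, ignoring strand and leaving out fragments that map to several places or overlap several genes. Exon lengths came from the same deposited tables. Symbols were matched by identifier from GENCODE release 44 (57754 of 58381 genes). The members and gene lists were chosen with earlier results of these data known. Counts were tested with edgeR 4.0.16 in R 4.3.3: 19621 genes passed filterByExpr with its minimum count at 10, library sizes were scaled by TMM, and a model with a term per subline was fitted to 15 libraries. Quasi-likelihood F tests were adjusted by the Benjamini-Hochberg method over all genes tested, at a threshold of 0.05. The SE was taken from the fold change and the F statistic. CPM used TMM-scaled totals, and TPM used exon lengths. Library totals set the precision, and intervals and the floor of 3 counts cover counting error only. Other genes were named where a called change reached 1 on the log2 scale with a mean of at least 1 CPM, at most 8 per step. The fit was tested on simulated data. Alternatives were a replicate block, DESeq2 1.42.0, other scalings and filters, fits of only the compared sublines, and each library left out. Sequences came from RefSeq and GENCODE tables. Figures were drawn with matplotlib 3.10.9. Other experiments of the study were not analysed here.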

Additional observations from a re-analysis of the deposited data

Results flagged for a closer look

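For 6 members the enzalutamide step differed between its backgrounds, by a contrast of the 2 steps in the same edgeR model. The change at the second step, into VCaP-CT-BR-ER, minus that at the first, into VCaP-CT-ER, was, on the log2 scale, -3.71 for AKR1C3, -1.74 for AKR1C1, -1.54 for AKR1C2, 0.91 for HSD17B6, 1.21 for HSD3B1 and 1.46 for SRD5A1. AKR1C3 was higher in all 3 VCaP-CT-ER libraries than in any VCaP-CT library and lower in all 3 VCaP-CT-BR-ER libraries than in any VCaP-CT-BR library, and SRD5A1 had the opposite arrangement. Of all 19621 genes tested, 49.7% differed by the same contrast. The subline groups hold 3 libraries each, so no library was tested as standing apart.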

How the results depend on the processing

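The 35 member results were recomputed under other settings and with each of 15 libraries left out. Of 8 such settings, that with the 3 AKR1C genes summed gave no value for a single member. Of the 763 member values, 739 kept their direction and side of the threshold, 17 lost the call, 4 gained it and 3 turned direction. The turned values belong to uncalled results of VCaP-CT-BR against VCaP-CT: AKR1C1 was -0.11 without VCaP-CT-BR replicate 2 (-0.11 to 0.39 over the libraries left out), and SRD5A3 was 0.058 without VCaP-CT replicate 1 and 0.0016 without VCaP-CT-BR replicate 3 (-0.14 to 0.058). HSD3B1 in VCaP-CT-ER against VCaP-CT also lost its call with no filter on low counts (adjusted p = 0.0559) and with only the compared sublines in the fit (0.0505). It gained one in VCaP-CT against VCaP-T with at least 10 counts asked of every library (adjusted p = 0.0438), a filter that left out AKR1C1, and without VCaP-T replicate 2 (0.0467). SRD5A3 gained one there without VCaP-T replicate 3 (0.0438) or VCaP-CT replicate 1 (0.0272). The AKR1C1 difference between enzalutamide steps lost its call with no filter (0.0812) and without any 1 of 8 libraries (0.0510 to 0.147). With all 3 AKR1C genes summed, the log2 fold change was 0.51 at the bicalutamide step and -1.09 at the second enzalutamide step, both called, where the sum of AKR1C1 and AKR1C2 was not (0.44 and -0.26). With a library left out, CYP17A1 passed the filter in 13 of 15 fits, and its difference between VCaP-CT and VCaP-T was called in 6 of them (edgeR adjusted p = 0.0353 to 0.172). Causes were not tested.

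With the replicate number as a block, genes called numbered 12727, 11861, 10322 and 8378 at the 4 steps and 9659 for the difference of steps, and no member call changed. Libraries with the same number did not deviate together on average (mean correlation -0.0082, beside 0.0040 between unlike numbers). At the 4 steps the same-number correlations ran from -0.513 to 0.526, and 5 of 12 libraries correlated best with their own number. With so few libraries per subline, this cannot settle whether the numbers pair the libraries. Depth limits CYP17A1, HSD3B2 and AKR1C1, whose libraries fall to a few counts.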
